A study of Mus musculus with 14 samples.

Results

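Gene expression was compared between the 3 cultured Eµ-Myc lymphoma lines whose heavy chain transcripts came mostly from the variable segment Ighv5-17 and the 9 cultured lines that used another segment. Eµ-Myc mice carry a Myc transgene driven by the immunoglobulin heavy chain enhancer and develop clonal B cell lymphomas. The members were chosen from measured values: a line was taken when Ighv5-17 had the most counts of all Ighv genes in its library, which held for lines 506, 549 and 688 out of 12. By this rule Ighv5-17 took 65.0% to 88.2% of the Ighv counts in the 3 lines. The nearest line outside the rule was line 504, with 0.0839%.

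Each of the 12 lines is labelled as derived from a different E-mu-MycTg/+ mouse and was cultured without treatment, 1 library per line, although the genotype field of the labels reads WT throughout. The other 9 lines were numbered 115, 136, 309, 504, 505, 517, 524, 649 and 801. A pair of lymphomas grown from line 506 in wild-type C57BL/6 mice, 1 from a vehicle-treated (NaCl) and 1 from an asparaginase-treated (ASNase) mouse, was set beside the lines, with 1 library each, and holds host cells. Total counts were 24597230 to 32614751 per line, so that 3 counts corresponded to 0.0878 to 0.119 CPM (counts scaled to library size by TMM), which a gene with no count could still have. The B cell genes Cd79a (319 to 368 CPM), Cd79b (358 to 418 CPM) and Pax5 (502 to 532 CPM) were high in the 3 lines, within their ranges over the 9. Mouse age and the number of clones per line are not stated in the labels. Whether the 3 lines share 1 clone was not tested, because the deposited counts hold no junction sequences. Values are therefore given with and without line 549, which stood apart, and with the 3 libraries summed to 1.

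Each B cell joins 1 variable (V), diversity and joining segment of the heavy chain locus, then a V and joining segment of a light chain locus, and hands that choice to its daughter cells. The most abundant V segment of a clonal B cell tumour is therefore commonly read as a tag of its clone. Cdkn2a encodes p16INK4a, an inhibitor of the D cyclin kinases, and p19ARF, which stabilises p53 by holding back Mdm2. Loss of this gene or of p53 is a common second event in lymphomas of Eµ-Myc mice. Its neighbour Mtap encodes methylthioadenosine phosphorylase, which returns the methylthioadenosine left by polyamine synthesis to methionine. Mtus2 encodes a microtubule-associated scaffold protein.

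The exons that encode the V regions on which the grouping and the likeness of the lines turn are shown, up to their first 300 bases, from the GENCODE M21 transcripts (GRCm38, 5′ to 3′ on the coding strand). For Ighv5-17 this is chr12:113859154-113859453, for Ighv5-2 chr12:113578511-113578810 and for Ighv13-2 chr12:114357772-114358071, all on the minus strand, and for Igkv9-120 it is chr6:68050159-68050456 on the plus strand. Capitals mark the bases of Ighv5-17 that differ from Ighv5-2 or have no partner there, the same for Ighv5-2 against Ighv5-17, for Ighv13-2 against Ighv5-17, and for Igkv9-120 against its close relative Igkv9-124.
Ighv5-17: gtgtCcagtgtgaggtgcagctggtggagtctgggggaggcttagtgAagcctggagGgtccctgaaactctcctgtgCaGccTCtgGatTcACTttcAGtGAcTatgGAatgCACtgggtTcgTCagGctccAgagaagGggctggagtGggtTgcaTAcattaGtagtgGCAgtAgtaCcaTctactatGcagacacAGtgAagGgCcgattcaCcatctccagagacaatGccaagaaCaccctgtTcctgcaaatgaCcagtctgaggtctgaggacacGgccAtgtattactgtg
Ighv5-2: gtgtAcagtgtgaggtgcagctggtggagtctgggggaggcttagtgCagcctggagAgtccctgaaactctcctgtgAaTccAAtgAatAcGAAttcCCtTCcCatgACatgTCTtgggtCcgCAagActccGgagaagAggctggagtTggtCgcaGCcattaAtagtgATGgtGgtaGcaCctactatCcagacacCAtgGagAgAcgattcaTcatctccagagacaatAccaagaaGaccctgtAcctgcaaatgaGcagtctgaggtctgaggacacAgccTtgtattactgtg
Ighv13-2: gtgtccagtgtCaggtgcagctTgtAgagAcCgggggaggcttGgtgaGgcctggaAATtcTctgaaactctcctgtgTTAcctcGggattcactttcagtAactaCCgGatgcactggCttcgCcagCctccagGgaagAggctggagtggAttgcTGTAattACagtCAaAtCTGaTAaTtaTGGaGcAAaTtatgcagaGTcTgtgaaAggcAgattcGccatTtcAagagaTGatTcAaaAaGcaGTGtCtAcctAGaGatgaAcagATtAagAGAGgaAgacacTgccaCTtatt
Igkv9-120: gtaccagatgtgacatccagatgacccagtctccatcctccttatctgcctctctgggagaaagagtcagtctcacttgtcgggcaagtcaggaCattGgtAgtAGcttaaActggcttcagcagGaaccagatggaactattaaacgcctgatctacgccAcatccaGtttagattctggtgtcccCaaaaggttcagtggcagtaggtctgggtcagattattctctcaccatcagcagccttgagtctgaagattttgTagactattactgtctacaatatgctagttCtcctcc
Over the whole exons, Ighv5-17 and Ighv5-2 were identical at 82.6% of aligned bases, with a longest shared run of 42 bases against a read length of 75 bases. Ighv5-17 and Ighv13-2 were identical at 73.4%. Igkv9-120 and Igkv9-124 were identical at 96.0% and shared a run of 94 bases, longer than a read, so reads can be divided or lost between that pair.

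Ighv5-17 had 11087 counts in line 506 (88.2% of 12568 Ighv counts, 95% Wilson interval 87.6% to 88.8%). It had 10052 counts in line 688 (87.0% of 11549, 86.4% to 87.6%) and 5431 counts in line 549 (65.0% of 8350, 64.0% to 66.1%). These intervals cover counting error only. In the 9 other lines it had 0 to 5 counts, and each of these lines had a different leading segment. The second segment of lines 506 and 688 was Ighv5-2, with 1480 and 1483 counts. Per 100 counts of Ighv5-17, Ighv5-2 had 13.3 in line 506, 13.8 in line 549 and 14.8 in line 688, and 14.9 and 12.6 in the vehicle and ASNase lymphomas. In the 9 other lines Ighv5-2 had at most 4 counts. The near-constant ratio held in all 5 libraries that used Ighv5-17; whether the Ighv5-2 counts are reads of Ighv5-17 transcripts was not tested.

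**Figure D1:**
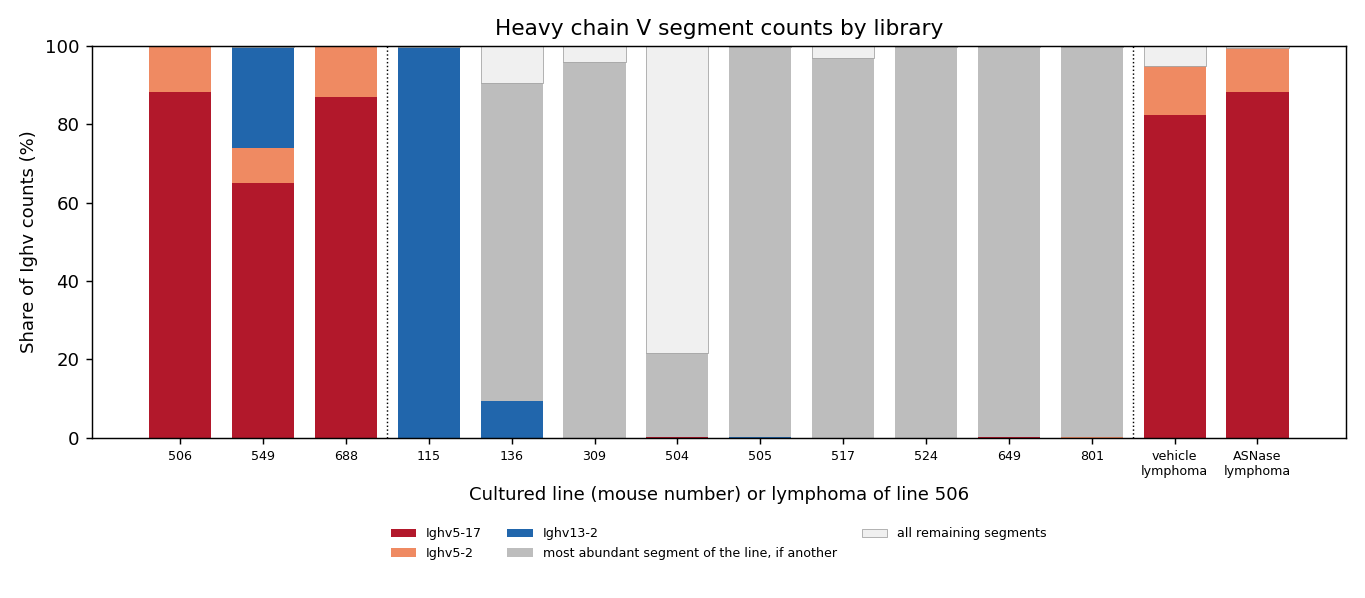
Share of all Ighv counts (%) taken by Ighv5-17, Ighv5-2, Ighv13-2, the line's own leading segment and all remaining segments in each library. Ighv5-17 took 65.0% to 88.2% in lines 506, 549 and 688, and line 549 is the one of them with a large Ighv13-2 share (25.7%).

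The leading kappa V segment, which the rule did not use, was shared too. Igkv9-120 led the kappa segments with 39446 counts in line 506 (93.3% of Igkv counts), 34346 in line 688 (98.2%) and 15911 in line 549 (51.5%). It was also the leading kappa segment of line 649, with 27547 counts (54.8%), where the heavy chain used Ighv1-80. Igkv9-120 alone therefore did not separate the 3 lines from the 9. The pairing of Ighv5-17 with Igkv9-120 was found in lines 506, 549 and 688 and in both lymphomas grown from line 506. No line of the 9 could show that pairing, because the rule took every line led by Ighv5-17. Ighm, the IgM constant region, was at 2395, 2025 and 2646 CPM in lines 506, 549 and 688. Igkc, the kappa constant region, was at 2269, 1611 and 2206 CPM. Ighj4 had the most counts of the heavy chain joining segments in each of the 3 lines (372, 299 and 392), as it did in 4 of the 9. The leading kappa joining segment was not shared. It was Igkj1 in lines 506 (41.1%) and 688 (27.7%), and Igkj4 in line 549 (29.1%, with Igkj1 at 26.8%). In the vehicle and ASNase lymphomas it was Igkj5 (23.4% and 22.6%). The lambda segment Iglv1 had 536, 602 and 25 counts in lines 506, 549 and 688.

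Over the 500 most variable genes, the 3 lines were more like each other than any other pair of lines was. Spearman's correlation was 0.92 between lines 506 and 688, 0.88 between 506 and 549 and 0.82 between 549 and 688. It ran from -0.06 to 0.67 over the 27 pairs of 1 of these lines with 1 of the 9, and from -0.08 to 0.65 over the 36 pairs among the 9. Of genes with at least 5 CPM in either line, 137 (1.46%), 190 (2.01%) and 241 (2.55%) differed by a log2 ratio of 1 or more between 506 and 688, 506 and 549, and 549 and 688. The same count was 463 to 2286 genes in the 27 mixed pairs and 820 to 2787 in the 36 others. The 3 libraries are not copies of one library: the chi-square per gene between them was 20.8 to 30.9, where counting noise alone gives about 1. These are descriptions across genes with 1 library per line, and pairs share libraries.

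**Figure D2:**
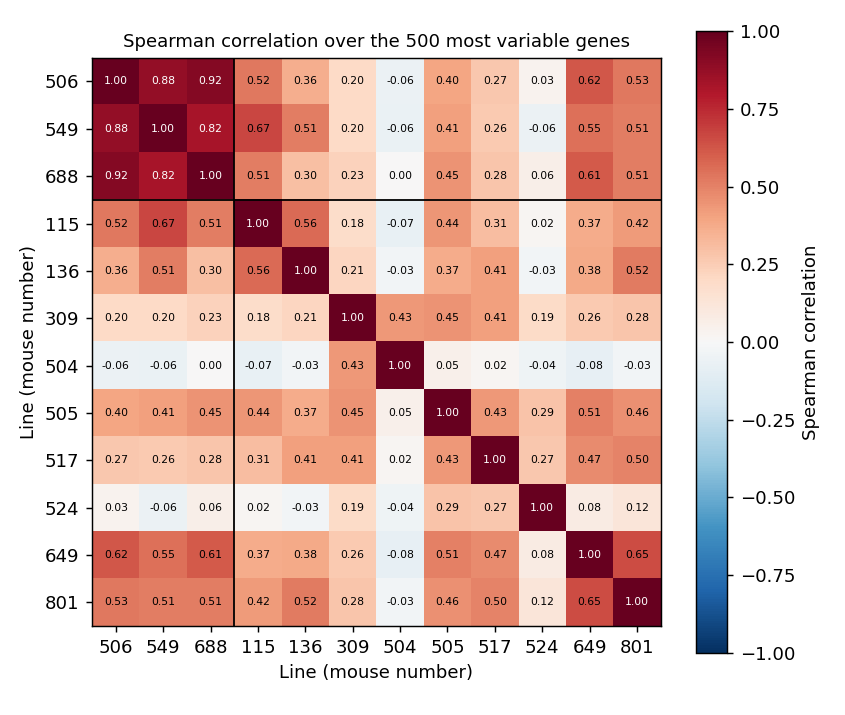
Spearman's correlation between all pairs of the 12 cultured lines over the 500 most variable genes, with lines 506, 549 and 688 first. Antigen receptor segments were not left out when these genes were picked. The 3 pairs among them lie at 0.82 to 0.92, and the nearest other pair is 549 with 115 at 0.67.

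Line 549 stood apart from lines 506 and 688 in its V segments. It had 2144 counts of Ighv13-2 (25.7% of its Ighv counts), a segment with 0 counts in lines 506 and 688, 8864 counts in line 115, where it led, and 681 in line 136. It also had 10661 counts of Igkv5-39 (34.5% of its Igkv counts) against 3 and 0 in lines 506 and 688, 3508 in line 136, 226 in line 801, 199 in line 115 and at most 3 in the other 6. Against the mean of 506 and 688, line 549 had 0.543 times the CPM of Ighv5-17, 0.534 times that of Ighv5-2, 0.456 times that of Igkv9-120, 0.622 times that of Mtus2 and 0.334 times that of Stxbp6, a SNARE-binding protein. Each of these 5 transcripts was lower in line 549 than in lines 506 and 688, and Igkv9-120 is the one of them that a line of the 9 (line 649) also had in quantity.

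Taking genes at 2 CPM or more in 1 of the 3 lines and at most 0.1 CPM in the other 2, 16 genes were on in line 549 alone (0.153% of the 10487 genes at that level there) and 0 in line 506 or line 688 alone. They included Mtap (56.8 CPM), the metabotropic glutamate receptor Grm4 (20.8 CPM), the transcription factors Ebf3 (12.5 CPM) and Prdm16 (6.24 CPM), and Spg20 (6.21 CPM), which encodes spartin. Of the 16, 14 were at 2 CPM or more in line 115, 13 in line 136 and 5 to 8 in each of the other 7 lines. Grm4 was at 56.8 CPM in line 115, 4.75 CPM in line 136 and at most 0.0350 CPM in the other 7. Cdkn2a did not follow that pattern: it was at 0.0374 CPM in line 549, against 96.5 CPM in line 115 and 148 CPM in line 136. Uaca, at 8.71 CPM in line 549, was at 0 CPM in line 115 and 31.7 CPM in line 136. In bulk RNA, fewer cells of a kind and less RNA per cell cannot be told apart, and whether line 549 holds more than 1 cell population was not tested.

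Line 688 was marked by absences. The reverse rule (at most 0.1 CPM in 1 line, 2 CPM or more in the other 2) gave 15 genes off in line 688 (0.148% of 10162) and 0 off in line 506 or line 549. They included Mier2 (12.4 and 13.2 CPM in lines 506 and 549, 0 in 688) and Tusc3, a subunit of the oligosaccharyltransferase complex (8.92, 8.34 and 0 CPM), both of which were at 2 CPM or more in all 9 other lines. The forkhead factor Foxd1 (17.7, 12.3 and 0.0378 CPM), the flippase Atp11a (9.68, 10.1 and 0 CPM) and the signalling regulator Rgs4 (8.12, 5.65 and 0.0757 CPM) belonged to the same set. Rgs4 was otherwise above 1 CPM in line 649 alone. These absences stood in 1 library and had no replicate check.

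**Figure D3:**
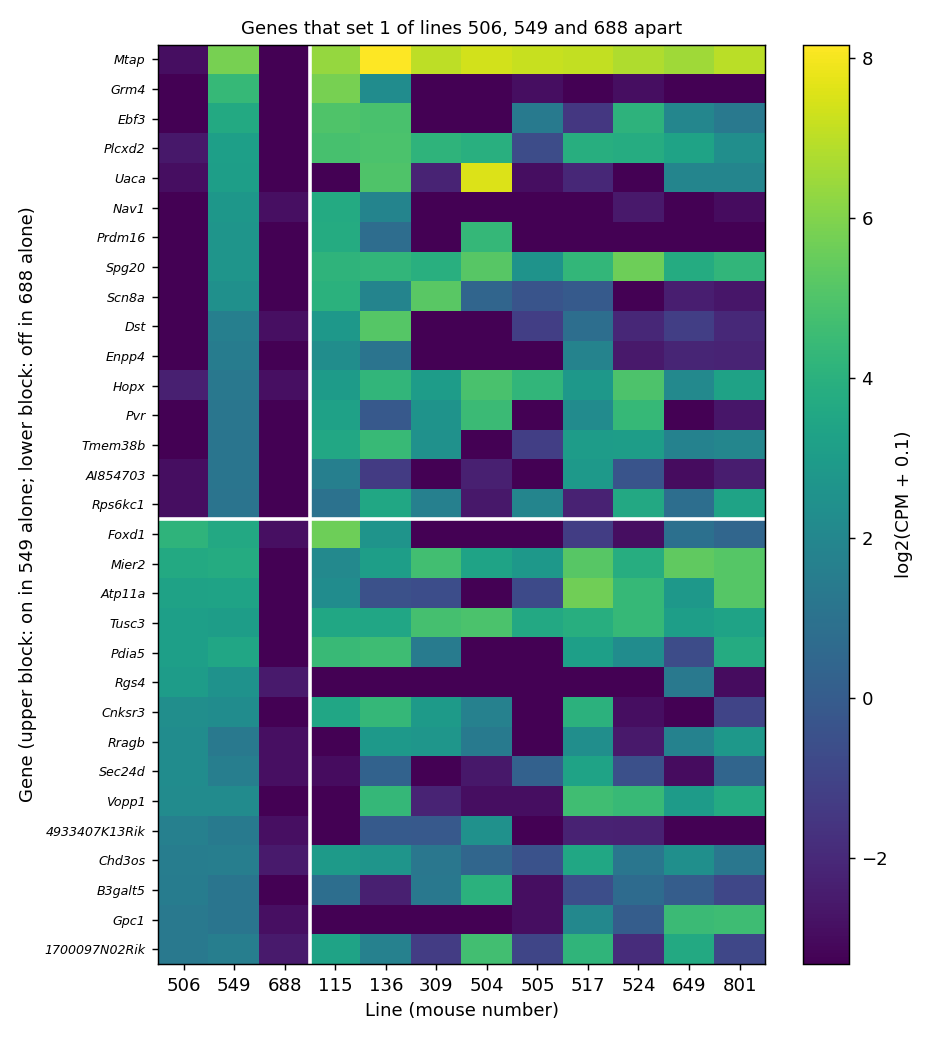
Level, as log2(CPM + 0.1), of the 16 genes on in line 549 alone (upper block) and the 15 genes off in line 688 alone (lower block), in all 12 lines. Most of the upper block is also bright in lines 115 and 136, and the lower block is dark in line 688.

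Of the 8 genes with the widest gap among the 3 lines and at least 20 CPM in the highest, 7 were highest in line 549. Mtap and Grm4 are described above. Cdk6, a D cyclin kinase, was at 0.232, 35.0 and 0.0378 CPM in lines 506, 549 and 688, and at 0.0939, 110.6 and 200 CPM as the lowest, median and highest of the 9. The metallothionein Mt1 was at 23.4, 64.4 and 0.530 CPM, and Tns3, a focal adhesion protein, at 5.01, 93.1 and 2.23 CPM. The remaining 3 were Camkv (1.69, 20.3 and 0.151 CPM), Dmxl2 (8.72, 25.9 and 0.416 CPM) and Zfp783 (28.1, 12.9 and 0.341 CPM). These 6 genes were all lowest in line 688, and Zfp783 alone was highest in line 506.

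Cdkn2a was close to absent in all 3 lines: it had 0 counts in line 506, 1 in line 549 and 1 in line 688. Over the 9 other lines it ran from 0.563 CPM in line 504 through a median of 96.5 to 212 CPM in line 517, so the groups did not overlap. The sum of 2 counts in the 3 lines against 27525 in the 9 gave a level 4172-fold lower (exact 95% interval 1155 to 34447, counting error only). With edgeR's quasi-likelihood test the log2 fold change was -11.74 ± 2.89 (SE, n = 3 and 9) and the adjusted p was 0.459, with the 9 lines themselves spread over the range above. DESeq2 gave an adjusted p of 5.83e-09 for the same gene. Cdkn2a, Mtap and Mtus2 were supplied with the request as marks of these lines, with results of these data known, so their differences are no independent evidence.

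The genes around Cdkn2a on chromosome 4 did not all share its level. Cdkn2b (chr4:89306289-89311032), encoding p15INK4b, had 0 counts in the 3 lines, against 0, 0.396 and 4.44 CPM as the lowest, median and highest of the 9. With 0 counts also in line 505, the groups overlapped. On the other side Mtap (chr4:89137122-89181081) was at 0.0332, 56.8 and 0 CPM in lines 506, 549 and 688, against 82.8 to 288 CPM in the 9. Lines 506 and 688 together had 1 count of Mtap and line 549 had 1520. The 3 lines therefore shared the low Cdkn2a and split at Mtap. Over all 3 lines edgeR's adjusted p for Mtap was 0.601, and without line 549 it was 0.000162, at a log2 fold change of -12.69.

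Farther out, transcripts were present. Klhl9, an adaptor of a ubiquitin ligase, was at 58.4, 49.8 and 53.1 CPM in the 3 lines and at 23.4 to 97.3 CPM in the 9. Focad was at 43.6, 44.9 and 45.7 CPM against 21.3 to 111 CPM, and Mllt3 at 15.4, 21.7 and 12.5 CPM against 13.7 to 64.4 CPM. Between Klhl9 and Mtap, the non-coding transcript Gm12602 (chr4:89100664-89128226, minus strand) was at 1.79, 1.23 and 2.38 CPM in the 3 lines, at 0.298 CPM in line 504 and at 0 counts in the other 8. Its 150 counts against 9 gave a 55.0-fold higher level (exact interval 28.2 to 122.6). Gm12602 was chosen for mention after its values were seen. The non-coding entries Gm12606, Gm12609 and Gm12610 lie closer to Cdkn2a. They had 0 counts in lines 506 and 688, and 6, 1 and 1 in line 549. In the 9 they had at most 451, 46 and 39 counts, and the groups overlapped. No DNA was measured, so whether the low transcripts follow from a deletion was not tested.

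**Figure D4:**
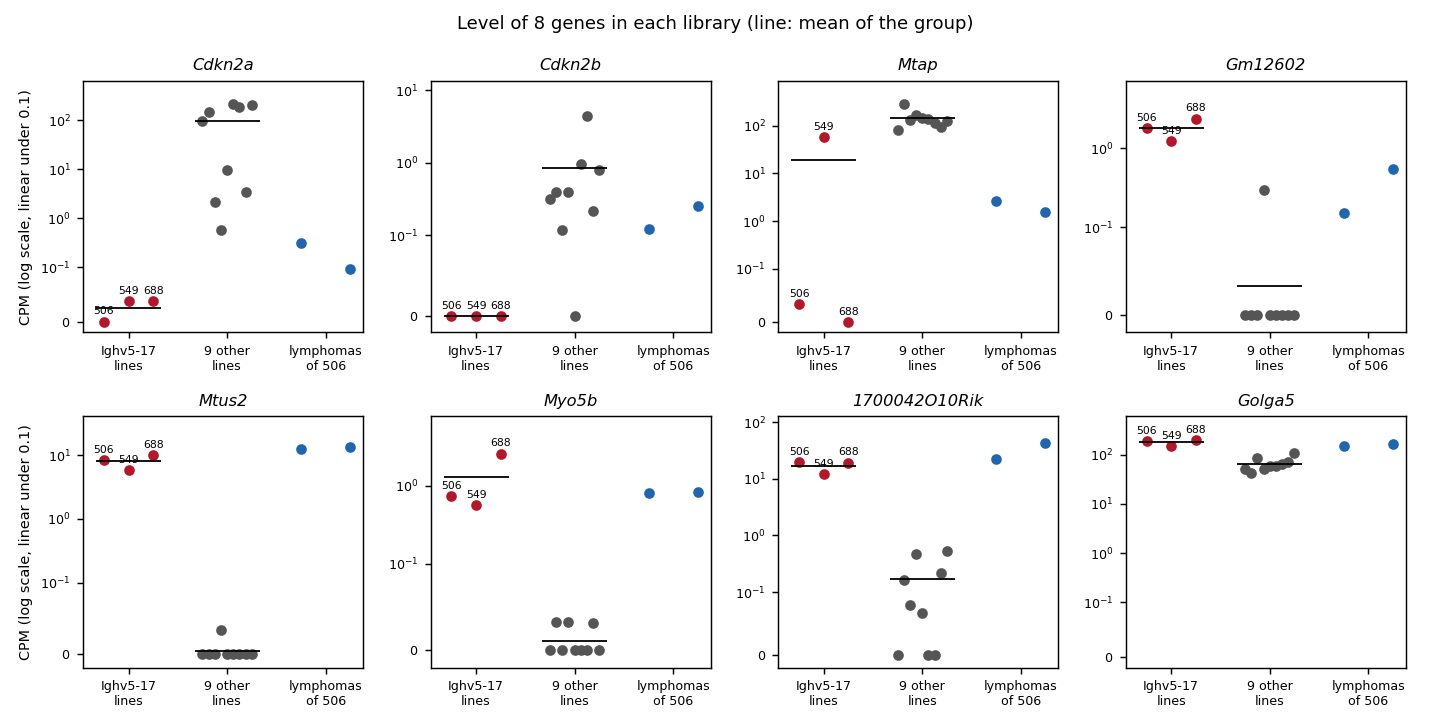
CPM (log scale, linear under 0.1) of 8 genes in lines 506, 549 and 688, the 9 other lines and both lymphomas of line 506, with a line at each mean. Cdkn2a, Mtap outside line 549 and Cdkn2b are near 0 in the 3 lines, while Mtus2, Myo5b, 1700042O10Rik and Golga5 lie above all of the 9.

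Of 13773 genes tested across the 3 and the 9 lines, edgeR called 2 (0.0145%), both higher in the 3. Antigen receptor segments were not counted here. At an unadjusted p under 0.05 there were 1141 genes (8.28%), 412 higher (2.99%) and 729 lower (5.29%). DESeq2 called 211 (1.53%), 40 higher (0.29%) and 171 lower (1.24%), and 89 of the 211 did not overlap between the groups. Of all 13773 genes, 184 (1.34%) had all 3 lines above all 9 and 155 (1.13%) had all 3 below. Calls and overlap come from the same values, so the overlap is no separate check on the calls. With the counts of the 3 lines summed to 1 library, as for 3 cultures of 1 clone, edgeR called Mtus2 alone of 15498 genes (0.00645%). Leaving out single lines gave 1 to 9 calls: 9 without line 115, 5 without 504, 4 without 549, 309, 517 or 801, and 1 without 688. The median log2 fold change of all genes tested was -0.05.

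Mtus2 (chr5:147957320-148316065) rose the most. It was at 8.49, 5.79 and 10.1 CPM in lines 506, 549 and 688, and the 9 other lines held 1 count between them, in line 504. The log2 fold change was 10.02 ± 0.64 (SE, n = 3 and 9, edgeR adjusted p = 1.54e-05). By counts the ratio was 2240-fold (exact 95% interval 401 to 88609). The gene kept its call without each line in turn, with adjusted p up to 0.0361 (without line 504). Its expressed neighbours overlapped between the groups: Pomp was at 123, 111 and 114 CPM in the 3 lines and Slc7a1 at 379, 366 and 346 CPM, against 88.0 to 134 and 262 to 409 CPM in the 9. In the lymphomas of line 506 Mtus2 was at 12.7 and 13.5 CPM.

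Myo5b, a myosin motor of recycling endosomes, was the second call. It was at 0.730, 0.561 and 2.57 CPM in lines 506, 549 and 688, and had 3 counts over the 9 others, with no overlap. The log2 fold change was 6.42 ± 0.74 (SE, n = 3 and 9, edgeR adjusted p = 0.00545). Line 688 carried much of it: without that line the adjusted p was 0.113, and with the 3 lines summed it was 0.478. The lymphomas had 0.800 and 0.837 CPM, close to line 506.

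The 8 genes next in order of p missed the threshold in edgeR and passed it in DESeq2, and none overlapped between the groups. Golga5, a golgin of the Golgi apparatus on chromosome 12, was at 192, 147 and 200 CPM in the 3 lines against 43.3, 58.7 and 110 CPM as the lowest, median and highest of the 9 (log2 fold change 1.45 ± 0.23, edgeR adjusted p = 0.0762). Eif2s3x, the X-linked gamma subunit of initiation factor eIF2, was at 659, 471 and 613 CPM against 314 to 458 CPM (0.67 ± 0.13, edgeR adjusted p = 0.242). Pydc4, an interferon-inducible pyrin domain gene, was at 54.2, 21.1 and 55.7 CPM against 0 to 2.27 CPM (edgeR adjusted p = 0.129).

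Several of these genes were lower in the 3 lines. Fuca2, a fucosidase, was at 3.08, 2.02 and 4.77 CPM against 8.26 to 23.3 CPM. Nt5c3b, a cytosolic nucleotidase, was at 11.9, 12.0 and 9.54 CPM against a lowest of 22.7 and a median of 33.3 CPM, and Slc4a8, a bicarbonate transporter, at 0.497, 1.83 and 1.51 CPM against 6.07 to 25.8 CPM. The lymphomas of line 506 were higher than that line in Slc4a8 (7.57 and 11.3 CPM), Fuca2 (10.7 and 16.6 CPM) and Nt5c3b (25.5 and 19.7 CPM). They hold host cells, and their part in these values was not tested.

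A neighbouring pair on chromosome 11, neither past the edgeR threshold, lay on opposite sides of the 9 lines. Fignl1 (chr11:11787431-11808962), an ATPase of homologous recombination, was at 41.0, 48.6 and 40.5 CPM against 68.5, 78.1 and 99.3 CPM as the lowest, median and highest of the 9 (log2 fold change -0.92 ± 0.14, edgeR adjusted p = 0.0762). The transcript 1700042O10Rik (chr11:11868123-11885321) was at 19.7, 12.1 and 19.2 CPM against 0 to 0.538 CPM (edgeR adjusted p = 0.0762, 97.9-fold by summed counts, exact interval 73.4 to 133.4), and in the lymphomas at 22.7 and 41.8 CPM. It lies within Ddc on the opposite strand, and Ddc had 0 counts in the 3 lines. The labels do not say whether counting used strand. Ddc was at 10.1 CPM in line 136 and 6.46 CPM in line 504, where 1700042O10Rik was at 0.165 and 0.464 CPM. Whether reads of either gene were counted for the other was not tested. Ikzf1, the lymphoid transcription factor gene beside Fignl1, was at 536, 457 and 556 CPM against 394 to 842 CPM, with overlap.

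Over all genes tested, all 3 lines lay above all 9 for 184 genes (1.34%) and below all 9 for 155 (1.13%). Leaving out a line makes this rule easier to meet. The counts then ran from 194 to 435 above and from 166 to 407 below. Without line 549 they were 435 and 407, without line 115 312 and 265, and without line 649 282 and 251. Without line 506 they were 322 and 225, and without line 688 228 and 216. Taking genes at no more than 0.1 CPM in each of the 3 lines and at a median of at least 2 CPM in the 9, 11 genes (0.106% of 10425) were silent. Cdkn2a was the one with no line of the 9 at or under that ceiling. The others included Dlk1, a membrane ligand related to Notch ligands (0 counts in the 3 lines, a median of 10.1 and a highest level of 107 CPM in the 9), and Arhgap29, a GTPase-activating protein (0 counts, 3.46 and 33.6 CPM). Tiam1, a Rac exchange factor, was at 0.0374 to 0.0757 CPM in the 3 lines and at a median of 16.1 CPM in the 9. Fam189a1, Lrig3, Mbp, Eci2, Atxn1, Prelid2 and Zfp182 completed the set. Between 1 and 4 lines of the 9 shared each of these 10 absences, and the 11 genes lay on 9 chromosomes. Cdkn2a was the only 1 of them on chromosome 4. Its neighbour Cdkn2b also had 0 counts in the 3 lines. The rule could not list Cdkn2b, whose median of 0.396 CPM in the 9 was under 2 CPM. The reverse rule left Mtus2 alone (0.00995% of 10050).

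Gene lists that fit B cell lymphoma were described by their members' calls and medians. Apart from Mtus2, edgeR called no list member, so each count below that names DESeq2 depends on that tool. Among 24 genes of D cyclin and RB control of the cell cycle, DESeq2 called 3 lower, Cdkn2a, Cdkn2b and Ccnd2 (against 1.24% of all genes tested), and the median log2 fold change was -0.16. Ccnd2 was at 0.398, 0.0374 and 0.114 CPM in the 3 lines against a median of 11.4 CPM, with overlap. Ccnd3 (88.6 to 111 CPM) and Ccnd1 (174 to 186 CPM) lay within the range of the 9. Among the 25 p53 genes tested, neither tool called any and 0 had an unadjusted p under 0.05 (median -0.05). Trp53 itself was at 250, 252 and 222 CPM in lines 506, 549 and 688, and Mdm2, its inhibitor and target, at 64.6, 61.1 and 72.1 CPM, both within the range of the 9. Myc was at 1886, 2495 and 1901 CPM against a median of 1555 CPM (edgeR unadjusted p = 0.360), and no tool called any of 32 MYC targets (median 0.12) or of 26 proliferation genes (median -0.09).

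Of the 28 genes of methionine salvage and polyamine synthesis, neither tool called any over the 3 lines (median 0.09). Downstream of Mtap, Mri1 (43.0, 52.4 and 47.2 CPM), Apip (14.5, 12.8 and 13.2 CPM) and Enoph1 (58.2, 49.8 and 52.3 CPM) lay within the ranges of the 9. The methionine adenosyltransferase Mat2a was at 602, 647 and 542 CPM (unadjusted edgeR p = 0.617), and the arginine methyltransferase Prmt5 at 218, 241 and 215 CPM (unadjusted edgeR p = 0.927). Both overlapped with the 9, and in both line 549, the one with Mtap transcripts, was the highest of the 3. Amd2, which shares its sequence with Amd1, was at 106, 84.1 and 87.3 CPM, above all of the 9 (60.3 to 83.8 CPM), with an edgeR unadjusted p of 0.0231.

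Genes of the mature B cell and its receptor had negative medians in the 3 lines and ranged widely among the 9. The 25 mature B cell genes tested had a median log2 fold change of -1.74. Of these, 2 were lower at an unadjusted edgeR p under 0.05 (5.29% of all genes tested were). DESeq2 called 1 lower (Ms4a1, against 1.24% of all genes). The summed level of the list was 769 to 1258 CPM in the 3 lines. In the 9 it was 497, 1184 and 10959 CPM as the lowest, median and highest. Ms4a1, encoding CD20, was at 0.729, 0.0748 and 0.530 CPM against 0, 7.98 and 532 CPM as the lowest, median and highest of the 9. H2-Ab1, a class II MHC chain, was at 17.9, 3.55 and 12.1 CPM against 8.16, 35.6 and 833 CPM. In receptor signalling the median of 25 genes was -0.59, and DESeq2 called Blk and Prkcb lower, both kinases, against 1.24% of all genes. Prkcb was at 0.431, 0.336 and 0 CPM against 0, 35.5 and 70.1 CPM, and Blk at 0.265, 0.0374 and 0.0378 CPM against 0.0989, 6.41 and 133 CPM. Line 115 also had little or none of either (0 CPM of Prkcb, 0.225 CPM of Blk).

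The 19 interferon response genes tested had a median of -1.79, with 4 lower at an unadjusted edgeR p under 0.05 (5.29% of all genes tested were) and Ifit2 called lower by DESeq2, against 1.24% of all genes (0.696, 0.486 and 0.492 CPM against 0.353 to 14.3 CPM). The 19 NF-kB targets had a median of -1.64 and 1 DESeq2 call (lower, against 1.24% of all genes), Lta, with 0 counts in the 3 lines and also in 3 of the 9. The summed level of the NF-kB list was not low in the 3 lines. It was 511 to 545 CPM there, against 386, 515 and 3965 CPM as the lowest, median and highest of the 9. Cholesterol synthesis was the list with the highest median, 0.49 over 22 genes, with 4 higher at an unadjusted edgeR p under 0.05 (2.99% of all genes tested were) and no call by either tool. Its member Hsd17b7 was at 125, 54.4 and 81.8 CPM against a median of 36.4 and a highest of 65.2 CPM. Sdc1, the syndecan of plasma cells, was at 91.7, 67.8 and 83.5 CPM, above all of the 9 (9.20 to 52.9 CPM), at an edgeR unadjusted p of 0.0142. Of the 7 plasma cell genes tested, Sdc1 alone lay above all of the 9 or had an unadjusted edgeR p under 0.05. Neither tool called any of the 7, and their median was 0.17. In the amino acid response list of 24 genes tested the median was 0.01, and Asns, asparagine synthetase, was at 61.3, 112 and 50.6 CPM within the range of the 9.

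By chromosome, the 3 lines differed little from the median line except on chromosome 19. The median log2 ratio over genes with a mean of at least 5 CPM was 0.34, 0.31 and 0.29 on chromosome 19 (360 genes) in lines 506, 549 and 688, and between -0.05 and 0.09 on every other chromosome. Lines 115 (0.29) and 136 (0.22) were also high on chromosome 19, while the other 7 lines were at -0.72 to -0.10. The raised median was thus shared with lines 115 and 136. Chromosome 4, with Cdkn2a, had medians of 0.01, -0.02 and -0.02. No DNA was measured, and copy number was not tested.

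**Figure D5:**
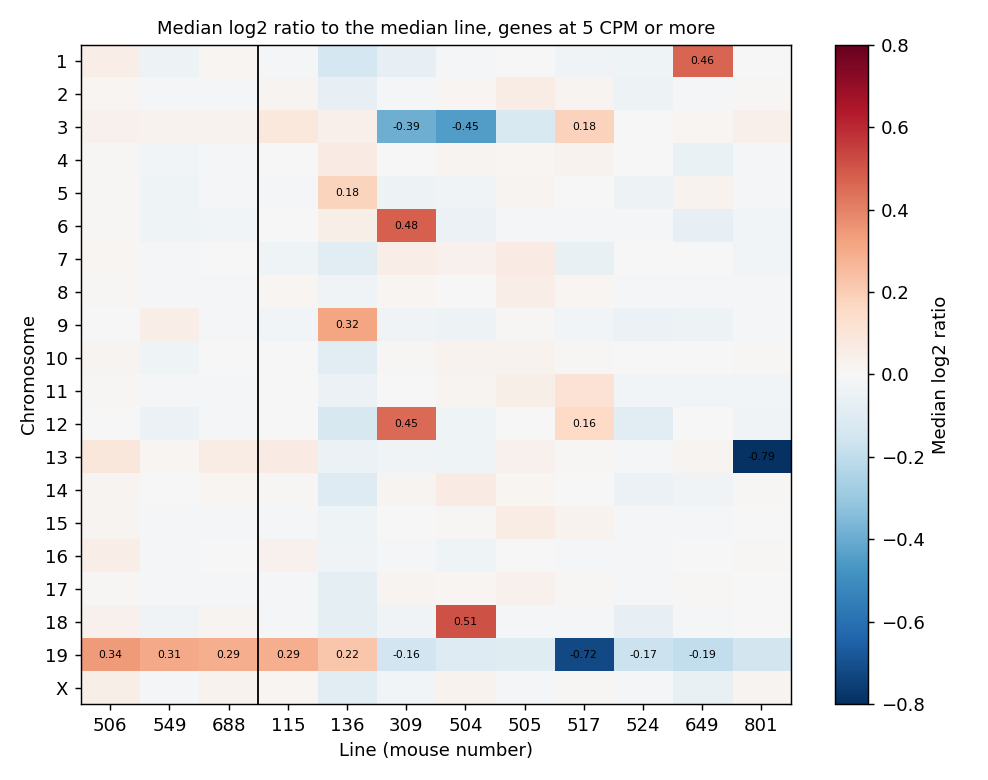
Median log2 ratio of each line to the median line, per chromosome, over genes at 5 CPM or more, with values printed where they reach 0.15 in size. Lines 506, 549 and 688 lie at 0.29 to 0.34 on chromosome 19, together with lines 115 and 136, and near 0 elsewhere.

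Sex chromosome transcripts moved with the grouping in part. Xist, the RNA of the inactive X chromosome, was at 557, 495 and 750 CPM in the 3 lines, at 749 CPM in line 504, 58.6 CPM in line 115, 10.4 CPM in line 136 and at most 0.477 CPM in the other 6. The Y-linked Ddx3y was at 0, 0.673 and 0 CPM in the 3 lines and at 28.2 to 114 CPM in 6 of the 9. DESeq2 called the 4 Y-linked genes tested lower, against 1.24% of all genes. Their part in the other differences, Eif2s3x included, was not tested.

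Markers of other cell types were at or near 0 in the 3 lines. Of 14 macrophage genes, 3 were at 1 CPM or more in any of them, and the sum was 8.82 to 11.8 CPM against 3.85 to 63.2 CPM in the 9, with C1qa, C1qb and Adgre1 at 0. No neutrophil gene of 10 reached 1 CPM, and S100a8 and S100a9 were at 0. Of 18 T and NK cell genes 1 did, Lck, with sums of 1.96 to 4.94 CPM against 2.07 to 43.7 CPM and Cd3e, Cd4 and Nkg7 at 0. The fibroblast and endothelial sum (75.8 to 80.2 CPM against 30.7 to 163 CPM) came almost wholly from Pecam1, with Col1a1, Dcn and Pdgfra at 0. The erythroid sum (618 to 735 CPM against 373 to 953 CPM) came almost wholly from Tfrc, with Alas2 at 0.

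The lymphomas of line 506, which the rule did not use, carried the leading V segments of that line. Ighv5-17 had 10329 counts in the vehicle and 11740 in the ASNase lymphoma (82.5% and 88.3% of Ighv counts), and Igkv9-120 led the kappa segments in both (89.6% and 91.6%). Cdkn2a was at 0.308 and 0.0966 CPM and Mtap at 2.58 and 1.55 CPM, above line 506 (0 and 0.0332 CPM) and below all 9 other lines. The host markers Col1a1 (261 and 580 CPM) and Lyz2 (140 and 261 CPM) were high in the same libraries, and their part in those values was not tested. Grm4, on in line 549 alone of the 3, was at 0 CPM in both lymphomas, as in line 506. Others of those 16 genes did not match line 506. Nav1 and Dst, both at 0 CPM in line 506, were at 8.83 and 15.2 CPM in the vehicle lymphoma. In the ASNase lymphoma they were at 11.1 and 18.6 CPM. The part of host cells in the Nav1 and Dst values was not tested. Foxd1 was at 17.7 CPM in line 506 and at 0 CPM in both lymphomas. In the same libraries Ighv5-17 was at 318 (vehicle) and 378 CPM (ASNase), against 368 CPM in line 506. The cause of the Foxd1 difference was not tested.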

How the data were processed

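RNA of 12 cultured Eµ-Myc lines and 2 lymphomas of line 506 was sequenced as paired reads from stranded mRNA libraries, per the labels' protocols. Alignment and counting tools named by the submitters' processing notes are STAR 2.4.0, Subread 1.5.0-p3 and featureCounts, with mm10 (GRCm38) as the build. The authors deposited whole-number counts per gene, not normalized, in 1 table whose 14 columns were all matched by title. Whether counting used strand, or reads matching several places, was not given in the sources used here, so values of overlapping genes and of close copies are uncertain.

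The 100 spike-in and phage entries were left out, with 46959 gene entries kept. Genes passing filterByExpr on the 3 and 9 lines were tested with edgeR 4.0.16 in R 4.3.3 (TMM scaling, robust quasi-likelihood fit, Benjamini-Hochberg adjustment, threshold 0.05). The 13773 genes counted exclude receptor segments. DESeq2 1.42.0, other scalings and filters, summed libraries and leaving out each line were the alternatives. Each SE beside an edgeR log2 fold change is the size of that change divided by the square root of the test's F statistic. It is not a value that edgeR itself reports. CPM uses TMM library sizes. The lymphomas entered no test. The fitting script was checked on data with known answers. Intervals for shares are Wilson's and those for count ratios are exact. Reads had no molecular identifiers, and all intervals are for counting error alone. Figures were drawn with matplotlib 3.10.9.

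Members, gene lists (29, with 570 of 571 genes found) and named genes were chosen with earlier results of these data known. Named were the 10 smallest p, up to 2 genes per list by p, the 8 widest gaps among the 3 lines at 20 CPM or more, silent genes, and a fixed set around Cdkn2a, Myc and Trp53. The 12 largest changes each way past the threshold at 10 CPM or more were also to be named, and none qualified. Genes set beside these (on or off in 1 line, neighbours, joining segments, markers) and other list members were chosen after their values were seen.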

Additional observations from a re-analysis of the deposited data

Results flagged for a closer look

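Among the 9 other lines, single libraries were flagged for 6 genes, by Dixon's test at the 95% level over 21 groups of values, where chance flags about 1 in 20. Mtus2 was at 0.0331 CPM in line 504, which is 1 count, and at 0 in the other 8. The test flags any lone count among zeros, so this flag does not set line 504 apart. Cdkn2b was at 4.44 CPM in line 524, above the others, and Trp53 was at 0.0700 CPM in the same line, below them. Asns was at 0.0313 CPM in line 649. Line 504 was lowest for Ighm, at 742 CPM, and for Igkc, at 1.16 CPM. Lines 506, 549 and 688, a group of 3, were not examined in this way.

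The lymphomas, which entered no test, had 10329 (vehicle) and 11740 (ASNase) counts of Ighv5-17, against at most 5 in any of the 9 other lines. Both derive from line 506.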

How the results depend on the processing

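Mtus2 was called higher in all 20 alternatives. The count of 2 calls was also 2 under 6 settings (other size factors, no scaling factors, either low-count filter, receptor segments left out of library sizes, no robust estimation), although with at least 5 CPM in 3 lines the calls were Mtus2 and 1700042O10Rik and Myo5b was not tested. The count was 211 in DESeq2 and 1 with the 3 lines summed, and ran from 1 to 9 when single lines were left out. Genes with all 3 lines above all 9 ran from 194 to 435 and below from 166 to 407 in those subsets, with both maxima without line 549. With all 12 lines they were 184 (1.34%) and 155 (1.13%), and leaving out a line makes that rule easier to meet. Myo5b lost its call without line 688 and with the lines summed (log2 fold change 5.43 and 6.46). Of 448 list genes tested, DESeq2 called 17 and edgeR 1, against 1.53% and 0.0145% of all 13773 genes tested. With a floor of 20 CPM, the mean share of genes past a log2 ratio of 1 among the 3 lines was 0.952% against 2.01%, and the chromosome 19 mean was 0.339 against 0.313. With a ceiling of 0.5 CPM, 28 genes were silent against 11 and 2 were restricted against 1, Stxbp6 being added. The cause of the differences between settings was not tested. Cdkn2a, Mtap and the 8 genes next to the threshold kept their direction in every setting that held them, and Cdkn2a passed only in DESeq2. No paired analysis was possible because the labels give each line its own mouse number and no shared replicate number. With 1 library per line, no line has an error of its own, and levels under about 0.1 CPM rest on 3 counts or fewer.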
